A study of Mus musculus and Rattus norvegicus with 32 samples.

Results

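Gene expression in METTL5-cKO hearts collected 4 weeks after transverse aortic constriction (TAC) was compared with that in unstressed METTL5-cKO hearts of 3 months, which together make up 8 of the 32 samples of the series. The members were chosen by their labels alone, as the 4 METTL5-cKO libraries of the TAC table and the 4 METTL5-cKO libraries of the 3-month table, joined on the gene identifier. METTL5 is a methyltransferase that places an m6A mark on ribosomal RNA. In METTL5-cKO mice the floxed exons 2 to 4 of Mettl5 are removed by a Cre under the Myh6 promoter, so both groups carried the deletion in cardiomyocytes and the other cells of the heart kept the gene. All mice were C57BL/6, and the labels call both groups 3-month old without saying whether that was the age at surgery or at collection. The titles name the genotype Mettl5-cKO and the genotype field names it Mettl5-KO. Control hearts (Ctrl in the labels, 4 libraries in each table, Cre status not given) were used to set a gene's own response in control mice beside that in METTL5-cKO mice. No sham-operated heart was analysed here and no library was shared between the tables, so the effect of the surgery and that of the table cannot be told apart in any difference given between TAC and 3 months.

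TAC narrows the aorta and loads the left ventricle with pressure. Loaded cardiomyocytes are known to grow, to switch natriuretic peptides and fetal sarcomere isoforms back on, and to lower the genes of fatty acid oxidation, calcium uptake and repolarizing potassium channels. Fibroblasts in such hearts become activated and lay down collagen and matricellular proteins, and the heart can pass from compensated growth to failure.

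The libraries were alike in depth, with total estimated counts of 20503672 to 21636272 at 3 months and 20469696 to 21804907 after TAC. The mitochondrial genome took 33.2 to 35.9% and 30.6 to 35.6% of counts. No pair of replicates was as close as sampling noise. On the first axis of a multidimensional scaling of the 16 libraries, which held 23.9% of the variation, the METTL5-cKO TAC libraries 1 to 3 lay at 1.48 to 1.88, METTL5-cKO TAC library 4 at 0.77 and the other 12 libraries between -1.02 and 0.17. Library 4 therefore stood nearer to the unstressed hearts than the rest of its group, and results that rest on it are also given without it. The labels do not say whether replicates were separate animals, so p-values measure only the spread between these libraries, which may be technical.

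The targeted gene Mettl5 (ENSMUSG00000051730, chr2:69871198-69885615 on GRCm38, minus strand) had 5.59, 6.26, 6.91 and 7.18 CPM (counts relative to the scaled library total) in the unstressed METTL5-cKO hearts and 7.38, 5.65, 6.47 and 7.01 CPM after TAC. Control hearts held 6.92 to 8.04 CPM at 3 months and 5.66 to 7.14 CPM after TAC, a range that overlapped that of the METTL5-cKO hearts. The log2 fold change after TAC in METTL5-cKO hearts was 0.027 (SE 0.13, adjusted p = 0.908). These counts cover the whole gene, exons outside the deleted part and non-cardiomyocytes included, and overlap Ssb on the other strand, so they check neither the deletion nor the labels.

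The labelled tissue carried its defining markers, with summed cardiomyocyte markers (Myh6, Tnnt2, Ryr2 and 7 others) at 37629 to 42173 CPM at 3 months and 29415 to 37123 CPM after TAC. Of these 10 markers, 1 was higher (10%) and 3 were lower (30%) after TAC at an adjusted p below 0.05. Among all tested genes 7.82% were higher and 6.78% lower, so the share of higher cardiomyocyte markers was close to that of all genes. The other marker counts of this paragraph stand against the same shares. In such bulk samples, fewer cells of a type and less RNA per cell cannot be told apart. Of the 9 testable markers of activated fibroblasts 7 were higher, the median change being 4.18 on the log2 scale, and the whole list summed to 70.3 to 119 CPM at 3 months and 206 to 1357 CPM after TAC. Markers of resting fibroblasts rose in 5 of 10, with sums of 1172 to 1354 and 1405 to 2420 CPM. Macrophage markers rose in 3 of 10 (174 to 247 and 268 to 343 CPM), and the sums of endothelial markers overlapped (623 to 899 and 631 to 834 CPM). Smooth muscle and pericyte markers summed to 728 to 841 CPM and 589 to 718 CPM, with 3 of 8 higher and 2 lower. The adipocyte markers Adipoq, Plin1, Cidec and Ucp1 and the neuronal marker Th were at 0 in the 8 libraries.

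METTL5-cKO hearts changed widely after TAC. Genes of the fetal and stretch programmes, the collagens and the matricellular proteins rose, and many genes of potassium channels and fatty acid oxidation fell. Of 55487 genes in the joined table, 16481 had enough counts to be tested with edgeR's quasi-likelihood test, and the adjusted p-values below come from it with the Benjamini-Hochberg method over those genes, unless they are said to belong to control hearts or to the interaction. At an adjusted p below 0.05 with an absolute log2 fold change over 1, which is here called dysregulated, 707 genes passed, 409 higher (2.48% of tested genes) and 298 lower (1.81%). Without the fold limit 1288 genes were higher (7.82%) and 1118 lower (6.78%). The CPM of the 2 groups did not overlap for 3321 genes (20.2%), among them 625 of the 707. For such a gene an exact two-sided permutation test over the 70 labellings of the 8 libraries gave 0.0286, the smallest p this design allows. Over all tested genes, log2 fold changes had a median of -0.0091 and their standard errors a median of 0.15. Without METTL5-cKO TAC library 4 the count was 1003, with 682 of the 707 among them, while it was 455 without TAC library 1 and 407 without TAC library 2.

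**Figure D1:**
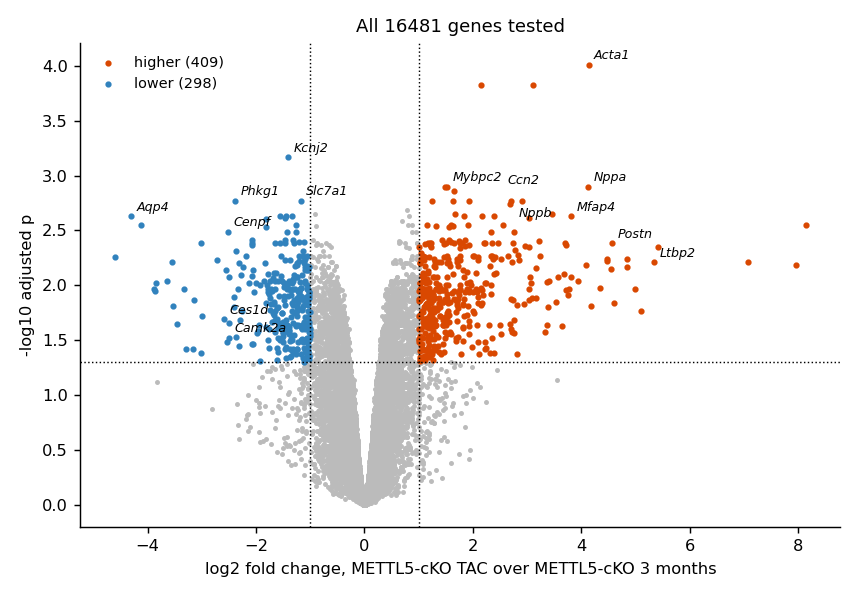
Log2 fold change of METTL5-cKO TAC against METTL5-cKO 3 months hearts (x axis) and −log10 of the adjusted p (y axis) for the 16481 tested genes, with dysregulated genes coloured by direction. Acta1, Nppa and Kcnj2 lie among the highest points, and the 409 higher genes reach larger fold changes than the 298 lower ones.

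Both natriuretic peptides rose. Nppa (ENSMUSG00000041616, chr4:148000722-148002079, plus strand), which encodes atrial natriuretic peptide, a hormone the ventricle makes under load, was at 201, 337, 265 and 323 CPM in the unstressed METTL5-cKO hearts and at 5814, 5438, 6243 and 2215 CPM after TAC. The groups did not overlap, and TAC library 4 was the lowest of its group. The log2 fold change was 4.12 (SE 0.34, adjusted p = 0.00126). Nppb (ENSMUSG00000029019, chr4:147985788-147987205, plus strand), encoding brain natriuretic peptide, stood at 94.4, 181, 105 and 93.3 CPM and 1007, 777, 637 and 678 CPM, a log2 fold change of 2.70 (SE 0.25, adjusted p = 0.00169). Here TAC library 4 lay inside the range of the others, and 3-month library 2 was the highest of the unstressed hearts. Nppa is itself among the 8 markers of atrial tissue, whose sum was 246 to 372 CPM at 3 months and 2234 to 6275 CPM after TAC, and most of that sum was Nppa. Of the 5 testable atrial markers, Nppa and Dkk3 (3.22 on the log2 scale) were higher and Kcnj3 was lower, while Bmp10 and Myl7 were at 0 in 8 and in 7 of the 8 libraries. Their part in the rise of Nppa was not tested. Nppa is overlapped on the other strand by Gm13054, and the strand of the libraries is not given in the sources used here, so reads of such pairs cannot be told apart.

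Acta1 (ENSMUSG00000031972, chr8:123891769-123894751, minus strand), the skeletal alpha-actin that fetal and loaded hearts use, was the gene with the smallest adjusted p of the comparison. It was at 174, 254, 197 and 129 CPM at 3 months and 3537, 3649, 2906 and 3209 CPM after TAC, with a log2 fold change of 4.14 (SE 0.21, adjusted p = 9.78e-05). All TAC libraries, library 4 included, were far above all unstressed ones. Acta1 overlaps Gm20388 on the other strand. Mybpc2, the fast skeletal myosin-binding protein C, rose from 15.9, 17.1, 15.9 and 13.4 CPM to 50.2, 50.1, 36.0 and 42.8 CPM, a log2 fold change of 1.52 (SE 0.13, adjusted p = 0.00126). Of the 9 testable fetal or stress sarcomere isoforms, 3 were higher and 1 lower. Myh7, the slow myosin heavy chain often read as part of this programme, did not pass the test, with 3651, 3339.6, 3872 and 3487 CPM at 3 months, 3193, 4732, 6721 and 4534 CPM after TAC and a log2 fold change of 0.41 (SE 0.19, adjusted p = 0.186).

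The 250 bases before the start of Nppa, Nppb and Acta1 are printed because these 3 genes rose together and are the best-known markers of cardiac load. The sequences are RefSeq's for GRCm38.p6, written 5′ to 3′ on the gene's strand. The starts are RefSeq's. That of Nppb lies inside the gene as GENCODE places it, and that of Acta1 lies upstream of GENCODE's start at 123894751. Distances counted from GENCODE's starts would therefore be other ones for both genes. Capitals mark matches to the MCAT motif CATTCC, bound by TEAD factors, the GATA motif AGATAA, the AP-1 motif TGANTCA, the TATA box TATAAA, the CArG box of serum response factor or the MEF2 box, searched on both strands.
Nppa, chr4:148000472-148000721, plus strand: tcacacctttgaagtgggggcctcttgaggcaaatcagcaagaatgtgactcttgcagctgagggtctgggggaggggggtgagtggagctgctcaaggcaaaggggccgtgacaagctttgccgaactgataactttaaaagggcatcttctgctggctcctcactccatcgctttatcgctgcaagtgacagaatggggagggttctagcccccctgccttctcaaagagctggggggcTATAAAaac
Nppb, chr4:147985650-147985899, plus strand: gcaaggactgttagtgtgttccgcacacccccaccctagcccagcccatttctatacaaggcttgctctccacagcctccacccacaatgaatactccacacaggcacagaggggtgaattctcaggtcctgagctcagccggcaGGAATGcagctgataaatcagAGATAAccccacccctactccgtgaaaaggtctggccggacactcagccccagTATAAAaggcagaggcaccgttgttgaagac
Acta1, chr8:123894776-123895025, minus strand: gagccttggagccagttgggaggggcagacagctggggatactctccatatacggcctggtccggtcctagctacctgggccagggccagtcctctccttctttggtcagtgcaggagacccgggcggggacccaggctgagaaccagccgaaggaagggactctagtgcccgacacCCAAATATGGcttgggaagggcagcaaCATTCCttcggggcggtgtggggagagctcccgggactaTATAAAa
Every one of the 3 windows held the letters TATAAA, at 9, 31 and 7 bases before RefSeq's start in Nppa, Nppb and Acta1. Nppb held an MCAT motif on the reverse strand at 105 bases and the GATA letters AGATAA at 84 bases. Only the spellings given were searched, so the letters TGATAA in the Nppa and Nppb windows were neither marked nor counted. Acta1 held an MCAT motif at 46 bases and a CArG box at 73 bases. Of all 32851 promoters of this length, 12.4% held the TATA motif, 12.6% MCAT, 9.99% GATA, 6.75% AP-1, 1.47% a CArG box and 0.508% a MEF2 box. No AP-1 or MEF2 box letters were found in these windows. A match is a run of letters and was not tested for binding.

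Stretch and Z-disc genes rose as a group, 14 of 16 higher and none lower, with 10 dysregulated. Their median log2 fold change was 1.03, against 0.35 for the same genes in control hearts. Xirp2, which encodes a repeat protein that binds actin at the intercalated disc, was at 300.4, 233, 239.8 and 158 CPM at 3 months and 1905, 1639, 1819 and 527 CPM after TAC, a log2 fold change of 2.65 (SE 0.38, adjusted p = 0.00545). TAC library 4 held the lowest value of its group but lay above every unstressed heart. Ankrd1, a stretch-responsive ankyrin repeat protein, went from 884, 996, 375 and 269 CPM to 3778, 4121, 3112 and 1800.4 CPM (log2 fold change 2.34, SE 0.44, adjusted p = 0.0119). Its relative Ankrd23 went from 169, 80.0, 168 and 84.4 CPM to 973, 728, 619 and 466 CPM (log2 fold change 2.47, SE 0.32, adjusted p = 0.00408). Nmrk2, a muscle kinase that makes NAD from nicotinamide riboside, was low at 3 months, at 4.10, 6.77, 4.65 and 3.33 CPM, and reached 58.8, 58.1, 20.4 and 7.46 CPM after TAC (log2 fold change 2.93, SE 0.59, adjusted p = 0.0148). TAC library 4 was close to the unstressed hearts for this gene, whereas the other 3 were well above them. Rcan1, a feedback inhibitor of calcineurin and a readout of its activity, rose from 32.8, 41.4, 50.1 and 37.8 CPM to 206, 174, 116 and 114 CPM (log2 fold change 1.91, SE 0.22, adjusted p = 0.00282). In all, 20 of the 28 testable genes of the fetal and hypertrophy programme were higher, 1 lower and 15 dysregulated, with a median of 1.02 against -0.0091 for all genes tested. Fits that left out 1 library gave 17 to 21 higher and 0 or 1 lower.

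**Figure D2:**
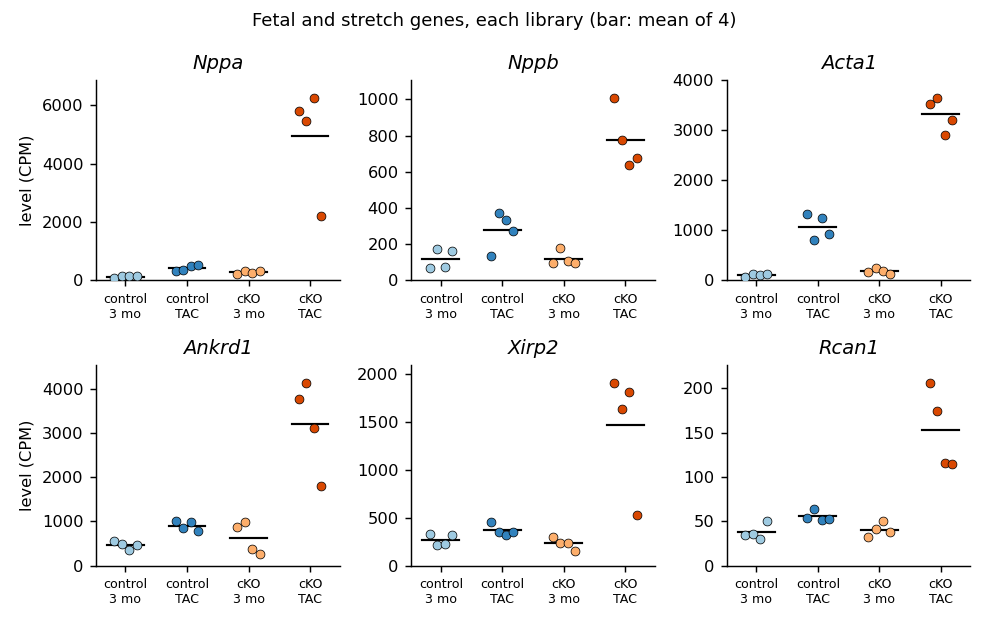
CPM of Nppa, Nppb, Acta1, Ankrd1, Xirp2 and Rcan1 in the 4 groups, with a point for each of the 4 libraries and a bar for the group mean. The METTL5-cKO TAC points lie above all METTL5-cKO 3 months points in every panel, and TAC library 4 is the lowest of its group for Nppa, Ankrd1, Xirp2 and Rcan1.

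The adult sarcomere moved little. Of 17 genes, 1 was higher (5.88%) and 2 were lower (11.8%), with a median log2 fold change of 0.05 (0.11 in control hearts). Of all tested genes 7.82% were higher and 6.78% lower. Myh6, the fast adult myosin heavy chain whose promoter also drives the Cre, was at 16774, 12790.3, 14579 and 11864 CPM at 3 months and 9408, 8370.3, 7608 and 10993 CPM after TAC, a log2 fold change of -0.63 (SE 0.16, adjusted p = 0.0289). Tnni3, adult cardiac troponin I, had a value of -0.62, and Actn2, the Z-disc alpha-actinin, of 0.35. These 3 calls were near the threshold and were lost in several of the alternatives that left out 1 library, with adjusted p up to 0.0954, 0.129 and 0.0867.

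Calcium handling genes fell in 7 of 31 (22.6%) and rose in 3 (9.68%), with a median log2 fold change of -0.16, against -0.23 in control hearts. Of all genes tested 6.78% were lower and 7.82% higher, so the share that rose was close to that of all genes. Atp2a2, the SERCA pump that returns calcium to the sarcoplasmic reticulum, was at 5884, 4272, 5013 and 3332 CPM in unstressed METTL5-cKO hearts and 2277, 2518, 2045 and 2895 CPM after TAC. The groups did not overlap, and the log2 fold change was -0.93 (SE 0.18, adjusted p = 0.0135). Pln, the inhibitor of that pump, also fell, by 0.63 on the log2 scale. Hrc, a calcium buffer of the same compartment, fell by 0.99, and Cacnb2, a subunit of the L-type calcium channel, by 1.47. Camk2a was at 44.0, 45.7, 40.4 and 37.1 CPM and 1.37, 17.2, 1.97 and 9.25 CPM, very uneven after TAC, with a log2 fold change of -2.51 (SE 0.63, adjusted p = 0.0302) that lost its call in 6 alternatives leaving out 1 library (adjusted p up to 0.0646). The calls of Hrc and Pln were lost without TAC library 2 (adjusted p up to 0.0502 and 0.0594). The count of 7 lower genes became 3 without TAC library 2 and 4 without TAC library 3 or without 3-month library 2, 3 or 4. The count of 3 higher genes was 0 or 1 in the same fits and without TAC library 1 or 3-month library 1.

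Potassium channels fell more broadly, 11 of 19 lower and 1 higher, and 18 of 19 had a negative value. The median log2 fold change was -0.64, against -0.35 in control hearts. Kcnj2 (ENSMUSG00000041695, chr11:111066164-111076821, plus strand), the inward rectifier that sets the resting potential, was at 25.3, 29.6, 23.2 and 24.9 CPM at 3 months and 8.84, 9.27, 10.3 and 10.5 CPM after TAC. Each group was tight and they lay far apart, and the log2 fold change of -1.41 (SE 0.10, adjusted p = 0.000681) had the smallest adjusted p among named lower genes. Kcnj3, a subunit of the acetylcholine-gated channel, went from 38.6, 29.3, 25 and 22.4 CPM to 6.50, 6.66, 10.1 and 9.65 CPM (log2 fold change -1.81, SE 0.21, adjusted p = 0.00294). Its partner Kcnj5 fell by 1.45 on the log2 scale. Kcnd2 and Kcnd3, which carry the transient outward current, fell by 1.75 and 0.90, and their accessory subunit Kcnip2 by 0.64. Kcnv2, a silent modifier subunit, fell by 1.79. Among sodium and pacemaker channels Scn4b, an accessory sodium channel subunit, fell by 1.44, 2 of 7 were higher and 1 lower. The 10 gap junction and intercalated disc genes had 2 higher (20%), among them Xirp2, given above with the stretch genes, and 1 lower (10%). Over all 36 channel and junction genes 13 were lower (36.1%) and 5 higher (13.9%), and without TAC library 2 these counts were 6 and 2. The counts of this paragraph stand against 6.78% lower and 7.82% higher among all tested genes. Those of the 7 sodium and pacemaker and the 10 junction genes rest on 1 or 2 genes each. The 5 were 3 without TAC library 3 or any 1 of the 3-month libraries. The summed cardiomyocyte markers were also lower after TAC (29415 to 37123 CPM, against 37629 to 42173 CPM), and their part in the falls of channel, calcium and mitochondrial genes was not tested.

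**Figure D3:**
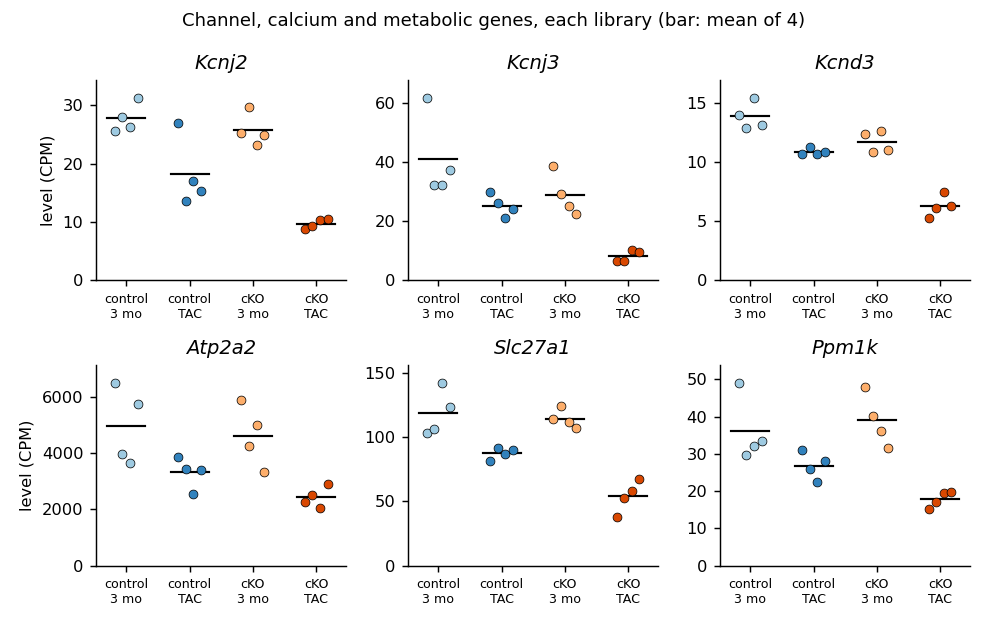
CPM of Kcnj2, Kcnj3, Kcnd3, Atp2a2, Slc27a1 and Ppm1k in the 4 groups, with a point for each of the 4 libraries and a bar for the group mean. In every panel the 4 METTL5-cKO TAC libraries lie below the 4 METTL5-cKO 3 months libraries.

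Genes of the extracellular matrix rose widely. Collagen genes were higher in 18 of 28 testable members and lower in 1, with a median log2 fold change of 1.17 (0.28 in control hearts). Leaving out 1 library gave 14 to 22 higher and 0 or 1 lower. Both fibrillar (5 of 7) and basement membrane collagens (6 of 8) rose. Col1a1, a chain of type I collagen, was at 67.5, 83.2, 36.3 and 44.7 CPM at 3 months and 411, 272, 203 and 107 CPM after TAC (log2 fold change 2.1, SE 0.40, adjusted p = 0.0127). Col3a1, of type III collagen, was at 155, 146, 48.2 and 56.4 CPM and 577, 412, 405 and 156 CPM (log2 fold change 1.93, SE 0.48, adjusted p = 0.028), and its call was lost in 5 of the alternatives leaving out 1 library (adjusted p up to 0.0756). For both, TAC library 4 was the lowest of its group and lay close to the highest unstressed heart. Col8a1, a short-chain collagen of vessels, rose from 12.4, 16.5, 8.85 and 11.9 CPM to 165, 133, 138 and 31.8 CPM (log2 fold change 3.23, SE 0.45, adjusted p = 0.00539). Col4a1 and Col4a2, the main chains of the basement membrane, rose by 1.17 and 1.12 on the log2 scale. These 2 genes lie head to head on opposite strands and overlap at their starts.

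Matricellular proteins and matrix glycoproteins were higher in 31 of 54 and lower in 3, with a median of 0.90 (0.34 in control hearts). Ccn2 (ENSMUSG00000019997, chr10:24595442-24598683, plus strand), connective tissue growth factor and a target of TGF-beta and YAP, was at 63.9, 77.3, 74.0 and 53.1 CPM at 3 months and 714, 589, 422 and 286 CPM after TAC (log2 fold change 2.90, SE 0.27, adjusted p = 0.00169). Every TAC library was well above every unstressed one. Its relative Ccn1 rose by 1.83 on the log2 scale, and Sparc, a collagen-binding glycoprotein, by 1.65. Postn (ENSMUSG00000027750, chr3:54361109-54391037, plus strand), periostin, the usual mark of an activated fibroblast, was at 25.7, 24.6, 15.6 and 16.2 CPM and 789.5, 526, 561 and 84.8 CPM (log2 fold change 4.57, SE 0.60, adjusted p = 0.00412). TAC library 4 lay far below the other 3 TAC libraries for Postn, though above all unstressed hearts. Fn1, fibronectin, rose by 1.32, and Mfap4, a microfibril protein, went from 8.61, 6.91, 6.64 and 7.6 CPM to 175, 103, 101 and 39.1 CPM (log2 fold change 3.81, SE 0.40, adjusted p = 0.00235). By role, 9 of 15 matricellular genes, 12 of 16 genes of fibronectin and elastic fibres, and 8 of 10 small proteoglycans were higher, while laminins and nidogens were higher in 2 of 13 with a median of 0.10. Without TAC library 2 the 31 higher genes became 20, and the 3 lower genes became 1 without TAC library 1 or 2.

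Genes of matrix proteins were among the higher genes with the largest fold change. They included Ltbp2, a latent TGF-beta binding protein, Cilp, a matrix protein of cartilage and scar, Postn, Fmod, a collagen-binding proteoglycan, and Thbs4, a thrombospondin. Ltbp2 was at 2.26, 2.01, 0.587 and 0.938 CPM at 3 months and 96.9, 70.3, 63.4 and 6.27 CPM after TAC (log2 fold change 5.34, SE 0.80, adjusted p = 0.00613). Cilp was at 5.05, 4.90, 1.76 and 1.13 CPM and 159.6, 114, 84.3 and 13.8 CPM (log2 fold change 4.84, SE 0.75, adjusted p = 0.00683). Thbs4 was at 2.35, 2.89, 2.57 and 2.58 CPM and 98.5, 74.9, 51.8 and 7.61 CPM (log2 fold change 4.48, SE 0.66, adjusted p = 0.00605). The log2 fold change of Fmod was 4.55. TAC library 4 held the lowest TAC value of all 5 genes. Markers of activated fibroblasts, which share Postn, Thbs4, Cilp, Ltbp2 and Meox1 with these lists, moved with them, and their part in the collagen and matrix changes was not tested.

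**Figure D4:**
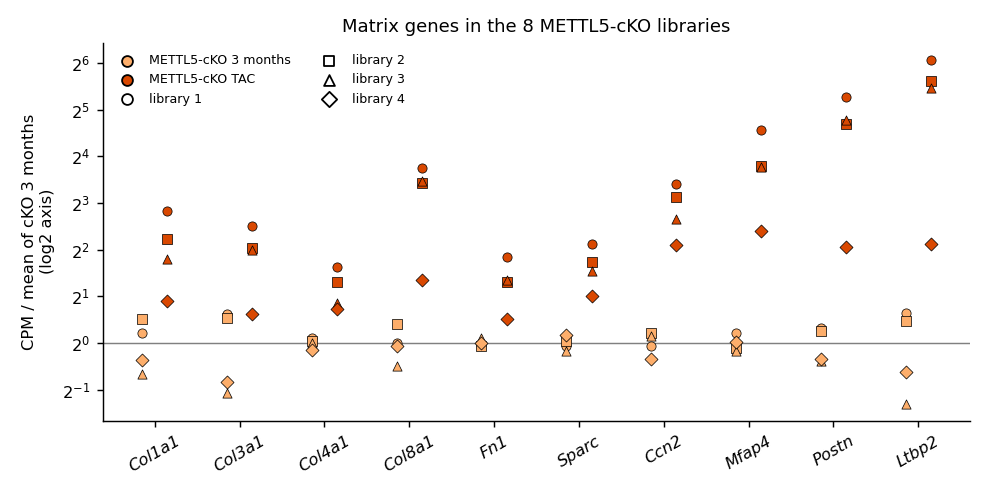
CPM of 10 matrix genes in the 8 METTL5-cKO libraries, each divided by the mean of the METTL5-cKO 3 months libraries (y axis, log2 scale), with a marker shape for each of libraries 1 to 4 and a colour for each group. TAC libraries 1 to 3 lie highest, and TAC library 4 is the lowest TAC library for all 10 genes, most plainly for Postn and Ltbp2.

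Matrix enzymes and their inhibitors were higher in 20 of 44 and lower in 1, with a median of 0.54 (0.17 in control hearts). With 1 library left out, 14 to 26 were higher and 1 or 2 lower. Enzymes that process and cross-link collagen were higher in 10 of 17, none lower. Lox, the lysyl oxidase that cross-links collagen, rose by 3.06 on the log2 scale. Timp1, an inhibitor of metalloproteinases, rose by 2.29. Metalloproteinases were mixed, with 7 of 20 higher and 1 lower. Mmp23 rose by 1.56 and Adamts1 by 1.11, while Adamts7 fell by 1.54.

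TGF-beta and fibroblast signalling genes were higher in 13 of 31 and lower in 2, with a median of 0.50 (0.20 in control hearts). Among ligands 7 of 15 were higher. Gdf15, a stress cytokine of the TGF-beta family, was at 1.49, 1.96, 1.35 and 1.41 CPM at 3 months and 35.7, 28.0, 9.91 and 8.85 CPM after TAC (log2 fold change 3.72, SE 0.49, adjusted p = 0.00431). Gdf6, a bone morphogenetic ligand, rose by 3.69, and Tgfb2 by 1.72. Of receptors and targets, 6 of 16 were higher. Meox1, a transcription factor that drives fibroblast activation, went from 7.26, 6.26, 5.33 and 8.11 CPM to 58.1, 36.2, 25 and 18.4 CPM (log2 fold change 2.35, SE 0.33, adjusted p = 0.00545), and Pmepa1, a feedback target of TGF-beta, rose by 1.18. Without TAC library 2, 8 genes of this list were higher.

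Of the angiotensin and endothelin system, 2 of 9 testable genes were higher (22.2%) and none lower, with a median of 0.20 (-0.04 in control hearts). Among all tested genes 7.82% were higher and 6.78% lower, and the share of this list rests on 2 genes. Edn3, an endothelin ligand, went from 1.89, 3.50, 3.25 and 2.11 CPM to 11.8, 23.5, 16.8 and 11.3 CPM (log2 fold change 2.55, SE 0.29, adjusted p = 0.00282), and Ace, the angiotensin-converting enzyme, rose by 1.5. The adrenergic and cAMP list had 4 of 20 lower (20%) and none higher, with 17 negative values and a median of -0.18, which was -0.34 in control hearts. Adra1b, an alpha-1 adrenergic receptor, fell by 1.27 on the log2 scale, Pde4d and Pde3a, which break down cAMP, by 1.16 and 0.95, and Adcy6, a main cardiac adenylyl cyclase, by 0.85. Without TAC library 2, 2 genes of this list were lower, and the calls of Adcy6 and Pde4d were lost (adjusted p up to 0.0607 and 0.0547).

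Fatty acid genes fell. Of 35 testable members 17 were lower and 1 was higher, with a median log2 fold change of -0.51 (-0.13 in control hearts), and all 15 beta-oxidation genes had a negative value, 9 of them past the test. Acaa2, the thiolase of the last step of beta-oxidation, was at 391, 401, 380.2 and 375 CPM at 3 months and 117, 162, 204 and 274 CPM after TAC (log2 fold change -1.04, SE 0.22, adjusted p = 0.017). Slc27a1, a fatty acid transporter, went from 114, 124, 112 and 107 CPM to 37.6, 52.7, 57.8 and 67.4 CPM (log2 fold change -1.09, SE 0.16, adjusted p = 0.00577). For both genes TAC library 4 was the highest of its group and below every unstressed heart. Decr1, which handles unsaturated chains, fell by 0.62, Etfa, which passes the electrons on, by 0.54, and Acsl6, which activates fatty acids, by 1.13. Acsl6 lost its call without TAC library 2 (adjusted p up to 0.0532). Bdh1, an enzyme of ketone use, was the member that rose, by 0.76, and no member was higher without 3-month library 1, 2 or 4 or TAC library 1 or 2, or with all 16 libraries in 1 fit. The count of 17 lower genes depended on the libraries, at 3 without TAC library 2, 7 without 3-month library 1 or 2, 8 without 3-month library 3 or TAC library 1 and 9 without TAC library 3.

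Of 76 subunits of the respiratory chain and ATP synthase, 3 were lower and none higher, a smaller share lower than that of all tested genes (3.95% against 6.78%), with 71 negative values and a median of -0.18, against 0.15 in control hearts. The 3 were Sdha, Sdhc and Ndufs1, and the count was 0 without TAC library 1, 2 or 3 or 3-month library 1, 2 or 3, and 22 without TAC library 4. The TCA cycle had 6 of 14 lower, with all 14 values negative and a median of -0.31 (-0.08 in control hearts). Together with the energy buffer genes, 7 were lower, and again 0 without any of those 6 libraries and 11 without TAC library 4. Ckb, the brain creatine kinase isoform, rose by 0.69 on the log2 scale. Of 32 genes of glucose use, 3 were higher (9.38%) and 4 lower (12.5%), with a median of 0.01 (-0.05 in control hearts). These shares stand against 7.82% and 6.78% of all tested genes. Pfkp, the platelet phosphofructokinase, rose by 1.00, and Pfkfb1, which sets a regulator of glycolysis, fell by 2.27. The 4 lower glucose genes were 9 without TAC library 4 and 2 without TAC library 1 or 2 or 3-month library 3, and the 3 higher ones were 1 without TAC library 1 or 2 or 3-month library 2.

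All 15 metabolic regulators had a negative value, 5 of them past the test, with a median of -0.43 (-0.27 in control hearts). Rxra, the partner of PPAR receptors, fell by 0.52, Ppargc1a and Ppargc1b, the PGC-1 coactivators, by 0.80 and 0.70, and Esrra, which they coactivate, by 0.40. The count of 5 was 0 without TAC library 2 and between 1 and 3 without TAC library 1 or 3 or 3-month library 1, 2 or 3. Of the 17 genes that break down branched-chain amino acids 9 were lower, with a median of -0.35 (-0.16 in control hearts). Ppm1k, the phosphatase that turns the pathway on, was at 47.8, 40.1, 36.2 and 31.7 CPM at 3 months and 15.3, 17.0, 19.6 and 19.8 CPM after TAC (log2 fold change -1.12, SE 0.14, adjusted p = 0.00403). Mccc2 and Aldh6a1 fell by 0.57 and 0.73. These 9 were 3 without TAC library 2, 4 without TAC library 1 and 5 without 3-month library 1 or 3.

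The study also followed Suz12, a core subunit of the repressive complex PRC2, and the MEF2 transcription factors. It did so in rat cardiomyocytes with METTL5 lowered or raised. There it reported less SUZ12 protein with METTL5 lowered and more with METTL5 raised, the Suz12 mRNA being unchanged. Both Mef2a and Mef2d mRNA were lower with METTL5 raised, and with METTL5 lowered a significant rise was reported for Mef2d alone. The values here are RNA of mouse hearts of a single genotype and do not repeat that comparison. Suz12 was at 14.1, 12.1, 13.7 and 12.6 CPM in unstressed METTL5-cKO hearts and 11.3, 13.0, 12.2 and 11.2 CPM after TAC (log2 fold change -0.14, SE 0.09, adjusted p = 0.321), and the groups overlapped. None of the 8 PRC2 genes and none of the 12 m6A enzymes and readers passed the test. The 3 testable MEF2 genes had a median of -0.36, against -0.24 in control hearts. Mef2a had a log2 fold change of -0.49 (SE 0.14, adjusted p = 0.0479) and Mef2d of -0.36 (SE 0.09, adjusted p = 0.0268). Both fell short of the threshold in most alternatives that left out 1 library and with scaling by library size alone (adjusted p up to 0.126 and 0.087). Cytosolic ribosomal protein genes were near the median of all genes, with 1 of 53 higher and a median of 0.11 (0.17 in control hearts).

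Outside these lists, the rule on single genes named several more. Pi16, a peptidase inhibitor of fibroblasts, went from 33.1, 37.2, 38.1 and 40.7 CPM to 171, 159, 144 and 92.8 CPM (log2 fold change 1.92, SE 0.18, adjusted p = 0.00169). Cpxm2, a carboxypeptidase-like protein, went from 9.88, 14.8, 11.2 and 11.8 CPM to 32.6, 42.1, 34.3 and 42.0 CPM, with very even groups (log2 fold change 1.66, SE 0.14, adjusted p = 0.00139). Every TAC library was above every unstressed one for both genes. Among the lower genes Phkg1, the muscle catalytic subunit of phosphorylase kinase, went from 21.9, 16.1, 15.7 and 21.4 CPM to 3.23, 3.12, 2.66 and 5.47 CPM (log2 fold change -2.38, SE 0.23, adjusted p = 0.00169). Slc7a1, a transporter of cationic amino acids, fell by 1.17 on the log2 scale, Dixdc1, a Wnt pathway protein, by 1.44, and Angpt1, the ligand of the endothelial receptor Tek, by 1.34. Aqp4, a water channel, was at 6.49, 4.90, 5.15 and 4.31 CPM in unstressed hearts and 0.221, 0, 0.287 and 0.547 CPM after TAC (log2 fold change -4.30, SE 0.46, adjusted p = 0.00235), with 1 TAC library at 0. Clcn1, the skeletal muscle chloride channel, was at 4.56 to 12.8 CPM and 0.486 to 1.19 CPM (log2 fold change -3.02, SE 0.39, adjusted p = 0.00408). Ces1d, a lipid esterase, was at 63.7, 54.5, 61.6 and 49.7 CPM and 4.55, 2.98, 5.61 and 25.3 CPM (log2 fold change -2.59, SE 0.58, adjusted p = 0.0204). TAC library 4 again stood between the groups for Ces1d, and the call was lost without TAC library 1, 2 or 3.

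Control hearts went through the same comparison, with the same confounding of surgery and table. There 139 of 16269 tested genes were higher (0.854%) and 95 lower (0.584%) at an adjusted p below 0.05, and 63 were dysregulated, 36 of them higher. Of these, 36 were also dysregulated in METTL5-cKO hearts, which is 5.09% of the METTL5-cKO list and 57.1% of the control list, and all 36 had the same direction. The count of 63 was 25 to 40 without control 3-month library 2, 3 or 4, and 18 to 30 without control TAC library 2, 3 or 4. The higher METTL5-cKO genes had a median log2 fold change of 1.52 and, for the 358 tested in controls, a control median of 0.51. The lower genes had -1.38 and, for 291, -0.51. The METTL5-cKO values here were chosen for size and the control values were not, so the pairs of medians are given as a description. Acta1 rose in control hearts too, by 3.23 (SE 0.22, adjusted p = 0.000714), with 74.7 to 134 CPM at 3 months and 803 to 1321 CPM after TAC.

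Whether the response differed between genotypes was tested as an interaction over all 16 libraries and 17070 genes, in which a shift of a whole table by the same amount in both genotypes cancels. At an adjusted p below 0.05 it called 1 gene (0.00586%). That gene was Dipk2a (ENSMUSG00000045414, chr9:94517864-94538081, minus strand), which encodes a secreted or Golgi protein related to kinases. Dipk2a was at 25.2, 25.9, 23.8 and 22.1 CPM in METTL5-cKO hearts at 3 months and 42.7, 47.3, 41.6 and 39.8 CPM after TAC, and at 29.3, 30.5, 25.4 and 27.6 CPM and 27.5, 29.9, 27.9 and 25.4 CPM in the controls. All 4 METTL5-cKO TAC libraries were above the other 12, and the difference of the log2 changes was 0.85 (SE 0.12, adjusted p = 0.0343). Dipk2a passed in 5 of the 16 fits that left out 1 library and not in the other 11, with differences of 0.80 to 0.90 and adjusted p of 0.000915 to 0.143. The fits without any 1 of the control TAC libraries and those without METTL5-cKO TAC library 1 or 2 were among the 11, and it did not pass with scaling by library size alone (0.0731) or with no filter on low counts (0.0819). At an unadjusted p below 0.05, the change in METTL5-cKO hearts was the greater one for 1128 genes (6.61%) and the lower one for 883 (5.17%). DESeq2 called 231 genes for the same question, and without METTL5-cKO TAC library 4 edgeR called 679, 372 greater and 307 lower. Without any other single library it called 0 to 2, and 0 without any 1 of the control TAC libraries.

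With all 16 libraries no gene of load or matrix passed edgeR's interaction test. Nppa was at 93.1, 154, 142 and 138 CPM in control hearts at 3 months and 338, 364, 497 and 543 CPM after TAC, a log2 change of 1.72 against 4.12 in METTL5-cKO hearts. The difference was 2.41 (SE 0.39, adjusted p = 0.0935). Postn changed by 1.38 in controls against 4.57, a difference of 3.20 (adjusted p = 0.12), and Xirp2 by 0.43 against 2.65 (adjusted p = 0.12). For Acta1 the difference was 0.91 with an adjusted p of 0.246. Among genes with a negative difference, Aqp4 differed by -3.08 (adjusted p = 0.0935), Fbp2, a muscle fructose bisphosphatase, by -1.72 (0.0935) and Kcnj2 by -0.80 (0.19). Leaving out METTL5-cKO TAC library 4 gave adjusted p of 0.000211 for Nppa, 9.76e-05 for Postn, 0.000211 for Xirp2, 0.00115 for Aqp4 and 0.000419 for Fbp2, and 0.139 for Acta1 and 0.0779 for Kcnj2. That library was singled out because its expression lay nearest to the unstressed hearts, so the fits without it are a description of how much rests on it and no test of a greater response. Without any other single library Nppa, Postn, Xirp2 and Fbp2 did not pass. Aqp4 also passed without METTL5-cKO TAC library 2 (0.0456). With all 16 libraries DESeq2 called Nppa (adjusted p = 7.42e-07), Postn (0.0014), Xirp2 (0.000294), Aqp4 (5.73e-08) and Fbp2 (8.71e-06), but not Acta1 (0.115) or Kcnj2 (0.0796).

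**Figure D5:**
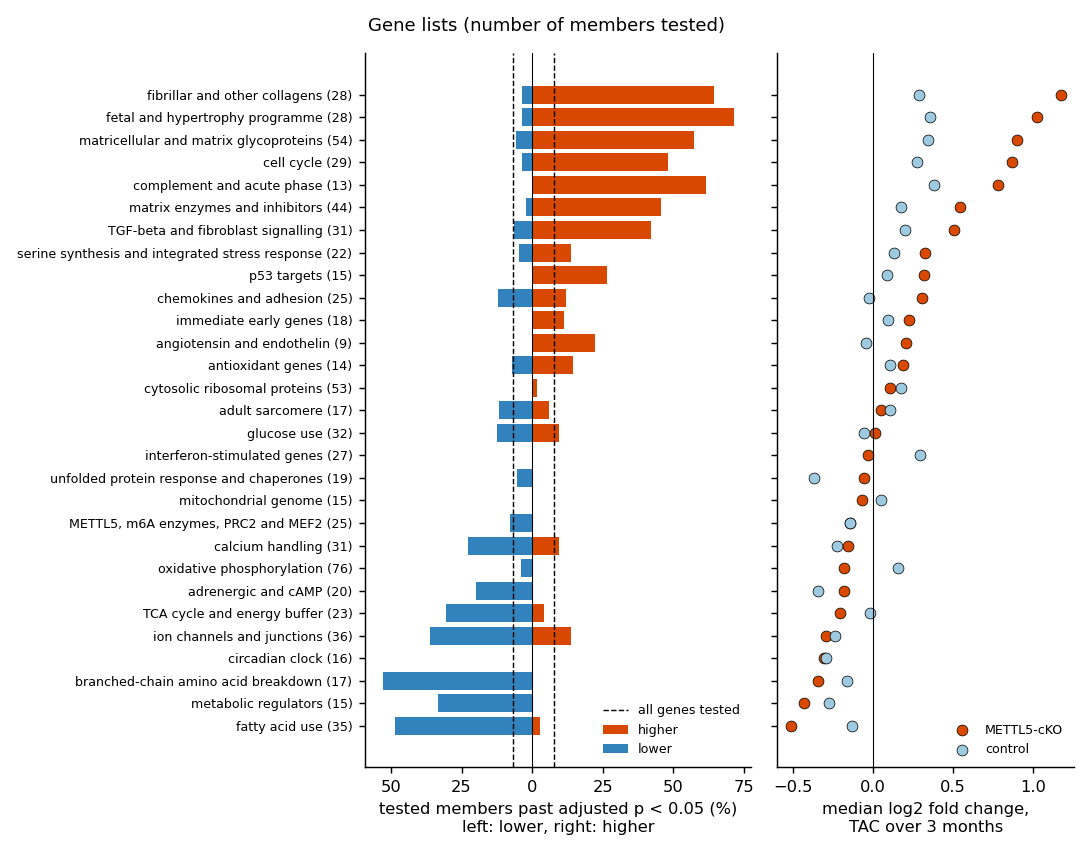
Percent of the testable genes of each list that were higher or lower at an adjusted p below 0.05 in METTL5-cKO hearts after TAC (left, dashed lines at 7.82% and 6.78% for all genes tested), and the median log2 fold change of the list in METTL5-cKO and in control hearts (right). The fetal programme, collagens, complement and matricellular lists have the largest shares of higher genes, and branched-chain, fatty acid and channel genes the largest shares of lower ones among the lists drawn, which leave out the 5 sex-linked genes.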

How the data were processed

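RNA from hearts (Trizol, BGIseq libraries) was measured in 4 METTL5-cKO libraries 4 weeks after TAC and 4 METTL5-cKO libraries at 3 months. The 4 control libraries of each table were measured too. The sample titles say only heart and do not name the chambers taken. The authors aligned reads to GRCm38 with HISAT2 2.0.4 and deposited an estimated count per gene from StringTie 2.1.4, per the submitters' processing notes, which also list DESeq2 1.4.5. Whether strand was used in counting is not given in the sources used here. StringTie estimates need not be whole and were rounded for the models, and no column was left unmapped (0).

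The 2 tables were joined on the gene identifier. Genes were kept with filterByExpr (minimum count 10, minimum total 15), scaled by TMM and tested with edgeR 4.0.16 (limma 3.58.1, R 4.3.3), with glmQLFit and glmQLFTest on the 8 libraries and Benjamini-Hochberg adjustment. Dysregulated means adjusted p below 0.05 with an absolute log2 fold change over 1, as in the study. The same was done in control hearts, and the difference between genotypes was the interaction over 16 libraries. CPM are counts relative to the TMM-scaled library total. Single values also had an exact permutation test. Library totals were 19899033 to 21804907 counts, and genes near 1 CPM, which rest on few counts, are the least precise. On simulated counts for 16481 genes, the comparison recovered 73% of genes changed by 1 on the log2 scale. It recovered 100% of those changed by 2, with 12 false calls of 185. The interaction over 17070 genes recovered 48% and 94%, with 7 false calls of 149. Changes were planted only in genes of at least 1 CPM on average, with noise independent between libraries. No simulated library stood apart as METTL5-cKO TAC library 4 does, so these shares may not hold for the data.

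The members, gene lists and tests were chosen with earlier results of these data known. Genes were named by rule. The first were genes whose RNA the study measured in hearts or, for Suz12, Mef2a and Mef2d, in rat cardiomyocytes. Next came the 8 higher and 8 lower dysregulated genes of smallest adjusted p with groups apart. The 6 such genes of largest fold in each direction with at least 5 CPM followed. Up to 4 called members of smallest adjusted p per list, the 5 in each direction of smallest interaction p, and cell type markers were also named. Acaa2, Ankrd1, Ankrd23, Bdh1, Dkk3, Kcnd2, Kcnip2, Kcnj5, Kcnv2, Lox, Myh7, Nmrk2, Rcan1, Scn4b, Tgfb2 and Timp1 were chosen after their values were seen. Some genes that the rule names are not reported here. Positions come from GENCODE vM21, which matched 16458 of the 16481 tested genes. Of 122 named genes, 55 overlap a gene on the other strand and 27 one on the same strand. The alternatives were DESeq2 1.42.0, its size factors, scaling by library size, other filters on low counts, all 16 libraries in 1 fit, an unadjusted p, no fold limit and leaving out each library.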

Additional observations from a re-analysis of the deposited data

Results flagged for a closer look

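In 15 of the 168 groups of 4 libraries checked, over all 4 groups of hearts, 1 library lay far from the other 3 by Dixon's criterion, which chance alone meets in about 1 in 20 groups. Among METTL5-cKO hearts, Nppb was at 181 CPM in 3-month library 2 and at 93.3 to 105 CPM in the other 3, and Map1a at 5.16 CPM in 3-month library 4 against 6.16 to 6.18 CPM. After TAC, Ces1d was at 25.3 CPM in library 4 and at 2.98 to 5.61 CPM in the other 3, and Mef2a at 83.7 CPM in library 3 against 69.0 to 71.2 CPM. The total of 3-month library 2 was 20503672 counts, against 21533427 to 21636272 in its group.

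Among control hearts at 3 months, the values apart were Camk2a at 2.68 CPM in library 2 (others 39.1 to 45.9), Dixdc1 at 10.9 CPM (5.55 to 6.33), Fmod at 1.03 CPM (0.467 to 0.504) and Sned1 at 44.5 CPM (19.6 to 23.5), these 3 in library 3, and Suz12 at 14.9 CPM in library 1 (12.8 to 13.1). Among control TAC hearts, library 3 had Angpt1 at 6.76 CPM (9.91 to 10.3), Mef2d at 109.7 CPM (98.5 to 100.1), Mettl5 at 5.66 CPM (7.05 to 7.14) and a total of 19899033 counts (21517545 to 21702443), and library 2 had Scara5 at 16.7 CPM (others at 13.9).

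The response of Dipk2a differed between genotypes by 0.85 on the log2 scale (METTL5-cKO minus control, edgeR interaction adjusted p = 0.0343), a call that was lost in 11 of the 16 fits that left out 1 library, those without a control TAC library included, and with scaling by library size alone. METTL5-cKO hearts rose and controls were at 25.4 to 30.5 CPM and 25.4 to 29.9 CPM.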

How the results depend on the processing

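The 707 dysregulated genes were 528 to 868 under DESeq2, its size factors, library-size scaling, other filters on low counts, an unadjusted p or all 16 libraries in 1 fit, and 2406 without the fold limit. Leaving out 1 library gave 407 (without METTL5-cKO TAC 2) to 1003 (without METTL5-cKO TAC 4). Library-size scaling moved the median of all genes by 0.0375 on the log2 scale and the share of higher calls from 57.9% to 62.2%.

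The 63 dysregulated genes of control hearts were 115 with DESeq2, 18 with no filter, 27 with all 16 libraries in 1 fit, 203 with an unadjusted p, 234 without the fold limit and 18 to 75 with 1 library left out. The interaction's 1 gene became 231 with DESeq2, 0 with library-size scaling, 0 with no filter, 2011 with an unadjusted p, 0 with an absolute difference over 1 and 0 to 679 with 1 library left out. The cause of these shifts was not tested.

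Of the 122 named genes, DESeq2 and its size factors lost no call, library-size scaling lost 7, all 16 libraries in 1 fit lost 1, and leaving out 1 library lost 2 (without METTL5-cKO TAC 4) to 38 (without METTL5-cKO TAC 2). Only Mettl5, which was not called, changed sign: its value was -0.039 without 3-month library 1, -0.028 and -0.002 when METTL5-cKO TAC library 1 or 4 was left out, and up to 0.099 in the other such fits. No paired analysis was possible because the column numbers match no replicate number in the labels and the groups compared come from different mice. With 4 libraries a group, changes of 1 on the log2 scale in low genes can be missed.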

Other observations

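Cell cycle genes were higher in 14 of 29 testable members in METTL5-cKO hearts after TAC and lower in 1, with 12 and 1 dysregulated and a median log2 fold change of 0.87 (0.28 in control hearts, -0.0091 for all genes tested). Most of these genes are expressed at a low level. E2f1, a factor of entry into S phase, was at 0.902, 0.607, 0.767 and 0.938 CPM at 3 months and 2.34, 3.95, 2.17 and 2.19 CPM after TAC (log2 fold change 1.71, SE 0.25, adjusted p = 0.00581). Nusap1, a spindle protein, went from 0.947, 0.840, 0.767 and 0.797 CPM to 2.70, 3.12, 2.29 and 1.89 CPM (log2 fold change 1.57, SE 0.19, adjusted p = 0.00389), and Ccnd2, a cyclin that cardiomyocytes and other cells use, from 106, 97.6, 93.3 and 93.9 CPM to 154, 189.7, 163 and 134 CPM (log2 fold change 0.71, SE 0.11, adjusted p = 0.00683). Cenpf, a kinetochore protein, was the member that fell, from 23.8, 18.2, 19.0 and 12.8 CPM to 1.81, 4.77, 2.37 and 3.98 CPM (log2 fold change -2.52, SE 0.30, adjusted p = 0.00324). Which cells carried the higher genes cannot be read from bulk RNA, and macrophage and fibroblast markers were higher in the same libraries. The 14 higher genes were 8 without 3-month library 3 or TAC library 2 and 9 without 3-month library 1, 2 or 4 or TAC library 1 or 3.

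Complement genes were higher in 8 of 13 testable members and lower in none, with a median of 0.78 (0.38 in controls). The C1q chains, which macrophages make, rose by 0.77 for C1qb and 0.75 for C1qc. C1ra, a protease of the same complex, rose by 0.61, and C5ar1, the receptor of a complement fragment, by 0.81. The 8 were 5 without 3-month library 1 or TAC library 1 and 4 without TAC library 2. Macrophage markers, which share C1qa with this list, summed to 174 to 247 CPM at 3 months and 268 to 343 CPM after TAC, and their part in the complement values was not tested. Chemokines and their receptors were mixed, with 3 of 25 higher and 3 lower (12% each, against 7.82% and 6.78% of all tested genes). These counts were 0 or 1 without most single libraries. Ccl11, an eosinophil chemokine, was the strongest of the lower members at -2.56 (adjusted p = 0.00733). None of 27 interferon-stimulated genes passed edgeR's adjusted threshold, with a median of -0.03 against 0.29 in controls.

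In the stress pathways, 26.7% of p53 targets, 13.6% of the integrated stress response list and 14.3% of NRF2 targets were higher. Of all tested genes 7.82% were higher. The shares lower were 0, 4.55 and 7.14% in the same order, against 6.78%. Each share rests on 4 or fewer genes. Of 15 p53 targets 4 were higher, Gdf15, Phlda3 (1.01 on the log2 scale), Btg2 (0.73) and Zmat3 (0.58), and 2 without TAC library 2. In serine synthesis and the integrated stress response 3 of 22 were higher and 1 lower. Nupr1, a stress-induced chromatin protein, rose by 2.38, Mthfd2, a mitochondrial folate enzyme, by 1.19 and Atf4, the pathway's main factor, by 0.50, while Aldh1l2, another mitochondrial folate enzyme, fell by 2.07. Of 19 genes of the unfolded protein response 1, Hspa5, was lower, by 0.48. Of 14 NRF2 targets 2 were higher (Hmox1, 0.73, and Nqo1, 0.53) and 1 lower (Gstm1, -0.63). The calls of Zmat3, Hspa5, Nqo1 and Gstm1 were each lost in 5 or more alternatives, those of Atf4 in 3 and that of Btg2 without TAC library 2.

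Of 18 immediate early genes, Myc (1.42) and Ier3 (0.56) were higher (11.1%, against 7.82% of all tested genes). The call of Ier3 was lost in 5 fits that left out 1 library (adjusted p up to 0.0957). None of the 16 core clock genes passed the adjusted threshold, with a median of -0.31 against -0.29 in controls. The 15 genes of the mitochondrial genome had none past the threshold and a median of -0.07. Among the 5 sex-linked genes Uty, Kdm5d and Ddx3y, all of the Y chromosome, were lower by 0.58, 0.43 and 0.31 on the log2 scale. Only 1 of the 3 was called without TAC library 1 or 2 or 3-month library 1, 2 or 3. The Y gene Eif2s3y overlapped between groups, at 39.6 to 40.1 CPM at 3 months and 37.5 to 44.7 CPM after TAC. The list's median was -0.31, against -0.21 in control hearts, and 2 members had a positive value. The 1-month hearts and the rat cardiomyocytes of the series were not analysed here.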
